A study of Macaca mulatta with 51 samples.

Results

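Cholesterol leaves a cell through membrane transporters, is carried in the plasma on lipoproteins and is moved between those particles by transfer proteins. The 10 genes described here cover these steps and were selected on the function of their products, with CETP as the lead gene because it rose strongly in adipose tissue post-treatment. They are CETP, PLTP, LCAT, ABCA1, ABCG1, SCARB1, NR1H3, NR1H2, APOE and APOC1, which are 10 of the 16033 genes in the count table, and all 10 passed the filter on low counts in both tissues. Because CETP was chosen by its change in adipose tissue, its values in that tissue are given as a description with no test. The other 9 genes were tested, although they too were chosen with earlier results of these data known.

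RNA was sequenced from punch biopsies of subcutaneous abdominal adipose tissue (AT) and of gastrocnemius skeletal muscle (SM) of 10 obese, non-diabetic rhesus macaques, of which 5 were males and 5 were ovariectomized females. The animals were 11 to 22 years old and all of them, at every time point, were kept on a diet rich in fat and sucrose. Biopsies were taken at 3 time points. Pre-treatment is the baseline, post-treatment follows 12 weeks of daily subcutaneous native human FGF21, a hormone of energy metabolism, raised from 10 to 1000 ug/kg/day in all but 1 animal, which was held at 300 ug/kg/day, and washout follows 16 weeks without treatment. No untreated animals were sequenced, so FGF21, any change of body weight or intake and the passing of time cannot be told apart. The 10 animals gave 10 AT libraries before treatment, 9 after it and 8 after washout, and 8 of the animals gave 6, 8 and 7 SM libraries at these times. The number of reads counted on genes was between 14455195 and 23940980 per library. Levels are given as CPM, the counts of a gene relative to all counts of its library, scaled by TMM factors within each tissue, which does not account for gene length. Changes are log2 fold changes ± SE from edgeR's quasi-likelihood fit, in which each animal has its own term, and p-values are adjusted by the Benjamini-Hochberg method across every gene tested in that tissue. A gene passed the test, or was called, when the adjusted p was under 0.05 and the log2 fold change lay outside -0.26 to 0.26.

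The labels of the tissues were borne out by marker genes. Summed over the 7 adipocyte markers in the table, AT libraries held 9640 CPM or more and SM libraries 1208 CPM or less, and the 9 skeletal muscle markers in the table summed to at most 187 CPM in AT. Among SM libraries, the post-treatment library of animal 21189 had the lowest sum of muscle markers (52360 CPM) and the highest sum of stromal markers (16911 CPM), and animal 24849 had the highest sums of adipocyte markers (791 CPM pre-treatment and 1208 CPM post-treatment, against 43.1 to 275 CPM in the other SM libraries). Post-treatment muscle marker sums were also low in animals 21866 (99594 CPM), 24849 (108607 CPM) and 20275 (127063 CPM). With 21189, these lay below every pre-treatment SM library (150514 CPM or more) and every washout one (188680 CPM or more). The remaining post-treatment SM libraries held 248143 CPM or more. The part of this in the SM changes and in the differences between the tissues was not tested. A biopsy is a mixture, so that fewer cells of a type and less RNA per cell cannot be told apart.

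As background, the liver X receptors NR1H3 (LXR alpha) and NR1H2 (LXR beta) are nuclear receptors that bind oxysterols and, with an RXR partner, switch on genes of cholesterol disposal, among them ABCA1, ABCG1, APOE, APOC1, PLTP, CETP and NR1H3 itself. ABCA1 passes cholesterol and phospholipid to lipid-poor apolipoprotein A-I, ABCG1 passes cholesterol to mature HDL, LCAT esterifies cholesterol on HDL, and CETP exchanges cholesteryl ester of HDL for triglyceride of other lipoproteins. Adipose tissue is a large store of free cholesterol and, in primates, one of the tissues that make CETP, while macrophages also make much of ABCA1, ABCG1 and APOE. Rats and mice lack CETP, so that the gene is studied in primates and other species that carry it.

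In AT, 3 of the 9 tested genes rose post-treatment compared to pre-treatment, the receptor NR1H3 and both ABC transporters, while the HDL receptor SCARB1 fell. These counts stand against 6.98% of the 13367 genes tested in AT called higher and 8.49% called lower. The remaining 5 genes, PLTP, LCAT, NR1H2, APOE and APOC1, did not pass the test. The median log2 fold change of the 9 genes was 0.07, next to 0.03 over all genes tested. CETP, which led the choice, went up in all 9 animals with both libraries.

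**Figure D1:**
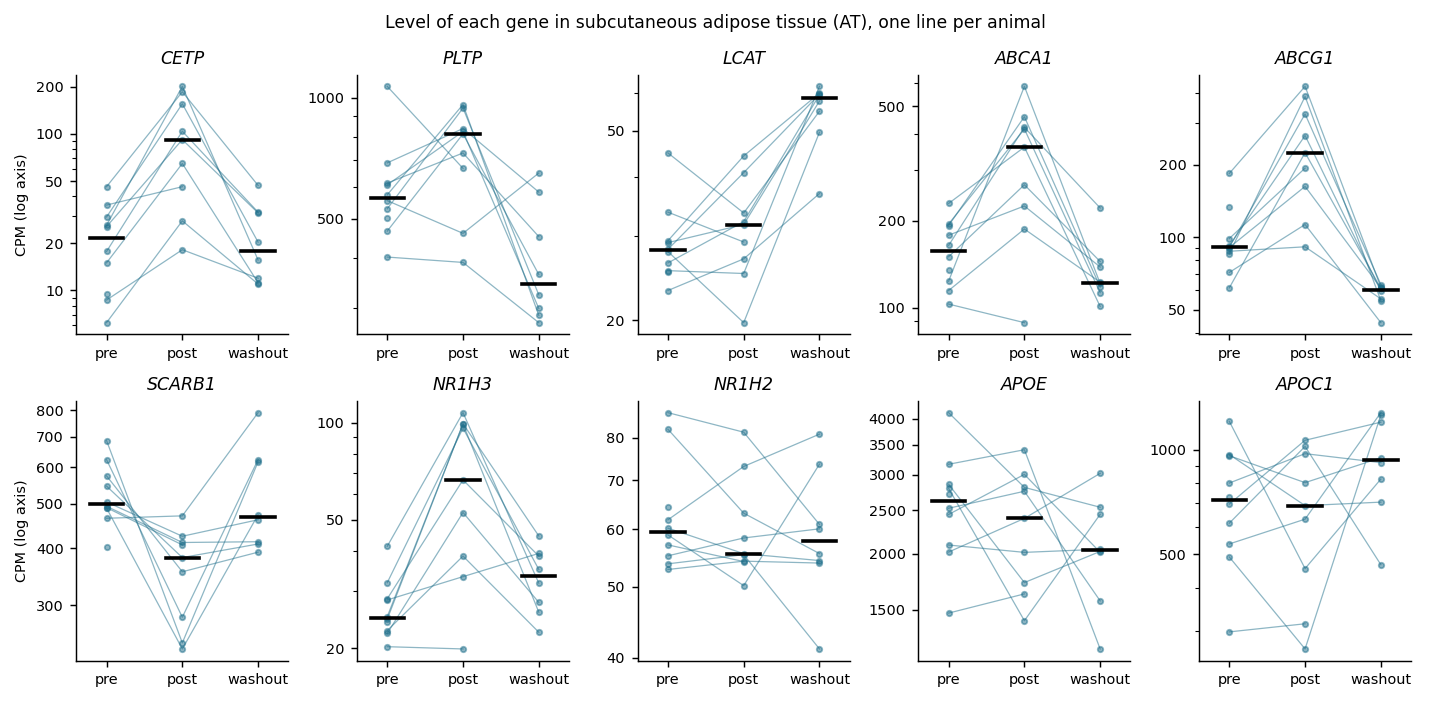
Level of each of the 10 genes in AT in CPM on a log axis at the 3 time points; each line joins the libraries of 1 animal (10, 9 and 8 libraries) and the black bar is the median of the time point. CETP, ABCA1, ABCG1 and NR1H3 peak post-treatment, SCARB1 dips post-treatment, and LCAT is highest at washout.

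CETP (ENSG00000087237) encodes the plasma cholesteryl ester transfer protein. In AT it ranged from 6.23 to 46.0 CPM pre-treatment (median 21.7), from 18.2 to 201 CPM post-treatment (median 91.9) and from 10.99 to 46.9 CPM at washout (median 18). The ranges overlapped, since animals started from different levels, but each of the 9 animals had more CETP post-treatment than pre-treatment and each of the 8 animals with a washout library had less at washout than post-treatment. The log2 fold change was 2.0 ± 0.26, a 4.0-fold difference, post-treatment compared to pre-treatment, -1.95 ± 0.27 at washout compared to post-treatment, and 0.04 ± 0.27 at washout compared to pre-treatment. Within animals the increase ran from 0.39 in animal 20456 to 2.94 in animal 21866 on the log2 scale, with a median of 2.10. The highest post-treatment levels were those of animals 21866 (201 CPM), 22130 (186 CPM) and 26292 (156 CPM), and the lowest were those of animals 23004 (18.2 CPM) and 20261 (27.8 CPM). CETP went from 8.69 to 18.2 CPM in animal 23004 and from 6.23 to 27.8 CPM in animal 20261.

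PLTP (ENSG00000100979), the phospholipid transfer protein that remodels HDL, ran in AT from 402 to 1068 CPM pre-treatment (median 565), from 390 to 962 CPM post-treatment (median 813) and from 276 to 650 CPM at washout (median 344). Post-treatment it was higher in 6 of 9 animals, and the log2 fold change of 0.30 ± 0.18 did not pass the test (adjusted p = 0.252). Between post-treatment and washout PLTP fell, by 0.83 ± 0.19 on the log2 scale (adjusted p = 0.00265), and it was lower in 7 of 8 animals. All groups overlapped, and the animal that broke the pattern was 23004, with 460 CPM post-treatment and 650 CPM at washout. At washout compared to pre-treatment the log2 fold change of PLTP was -0.53 ± 0.19 (adjusted p = 0.054), and without animal 23004 it was -0.67 (adjusted p = 0.0118).

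At washout compared to post-treatment, 6 of the 9 tested genes passed the test in AT. PLTP, NR1H3, ABCA1 and ABCG1 fell, 4 of 9, and LCAT and SCARB1 rose, 2 of 9, beside 17.8% of all AT genes called lower and 17.6% called higher in this comparison. The median of the 9 genes was -0.21, against -0.00 over all genes. Both comparisons use the same post-treatment libraries, so that an opposite sign in the second is partly built in.

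NR1H3 (ENSG00000025434) spanned 20.2 to 41.4 CPM pre-treatment (median 24.9), 19.9 to 107 CPM post-treatment (median 66.4) and 22.4 to 44.6 CPM at washout (median 33.5). The log2 fold change post-treatment was 1.19 ± 0.20 (adjusted p = 0.00178), with 8 of 9 animals higher; animal 20456 stayed level, at 20.2 CPM pre-treatment and 19.9 CPM post-treatment. At washout NR1H3 fell by 1.02 ± 0.20 compared to post-treatment (adjusted p = 8.77e-04) and differed from pre-treatment by 0.17 ± 0.20 (adjusted p = 0.582). NR1H2 (ENSG00000131408), its ubiquitous paralog, ranged from 41.1 to 86.6 CPM over all AT libraries and passed the test in no comparison. Its log2 fold change post-treatment was -0.06 ± 0.10 (adjusted p = 0.716), and 4 of 9 animals were higher.

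ABCA1 (ENSG00000165029) went from 103 to 230 CPM pre-treatment (median 157) to 88.6 to 586 CPM post-treatment (median 361), and stood at 100.8 to 222 CPM at washout (median 122). Its log2 fold change was 0.93 ± 0.21 post-treatment (adjusted p = 0.0085), higher in 8 of 9 animals, and -1.32 ± 0.22 at washout compared to post-treatment (adjusted p = 1.69e-04), lower in all 8. Animal 22130 had the largest increase, from 123 to 586 CPM, and animal 20456 the one decrease, from 103 to 88.6 CPM.

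ABCG1 (ENSG00000160179) ranged from 61.6 to 184 CPM pre-treatment (median 90.7), from 91.2 to 425 CPM post-treatment (median 225) and from 44.1 to 63.5 CPM at washout (median 60.5). It was higher post-treatment in all 9 animals, with a log2 fold change of 1.27 ± 0.19 (adjusted p = 0.00103), although in animal 20275 the increase was 0.06. Every post-treatment library was above every washout library, and the log2 fold change at washout compared to post-treatment was -1.95 ± 0.21 (adjusted p = 4.34e-06). The share of all AT genes without overlap in this comparison was not computed. At washout ABCG1 was also lower than pre-treatment in all 8 animals, by a log2 fold change of -0.68 ± 0.20 (adjusted p = 0.0192). That call was lost without animal 26292, whose pre-treatment library held the highest level (184 CPM); the log2 fold change was then -0.54 (adjusted p = 0.0704). It was also lost without the pre-treatment AT library of animal 20275 (-0.60, adjusted p = 0.0528).

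SCARB1 (ENSG00000073060) encodes SR-BI, the receptor that takes up cholesteryl ester from HDL and lets free cholesterol pass in both directions. It fell post-treatment in 8 of 9 animals, from 403 to 687 CPM (median 499) to 241 to 470 CPM (median 381), a log2 fold change of -0.61 ± 0.15 (adjusted p = 0.014). Washout libraries held 392 to 790 CPM (median 467), above post-treatment in all 8 animals by 0.53 ± 0.16 on the log2 scale (adjusted p = 0.0119), and washout differed from pre-treatment by -0.08 ± 0.15 (adjusted p = 0.766). In the AT libraries of the last of 3 series of library numbers alone, the log2 fold change post-treatment was -0.67 (adjusted p = 0.0547) and that at washout compared to post-treatment 0.35 (adjusted p = 0.35), so that both calls were lost. SCARB1 was thus low at the time point at which ABCA1 and ABCG1 were high.

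LCAT (ENSG00000213398) followed a course of its own. Its levels ran from 23.1 to 45.0 CPM pre-treatment (median 28.0) and from 19.7 to 44.3 CPM post-treatment (median 31.8), and the log2 fold change between them was 0.07 ± 0.12 (adjusted p = 0.699). At washout they were 36.9 to 62.1 CPM (median 58.7), higher than post-treatment in all 8 animals by 0.83 ± 0.12 (adjusted p = 5.60e-05) and higher than pre-treatment in all 8 by 0.90 ± 0.12 (adjusted p = 2.71e-05). LCAT was the one gene of the 9 called higher at washout than pre-treatment and ABCG1 the one called lower, in a comparison in which 12.5% of all AT genes were called higher and 7.96% lower.

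APOE (ENSG00000130203) and APOC1 (ENSG00000130208), neighbouring genes for surface apolipoproteins of HDL and triglyceride-rich particles, passed the test in none of the 3 AT comparisons. APOE lay between 1225 and 4132 CPM in AT, and its log2 fold change post-treatment was -0.14 ± 0.19 (adjusted p = 0.631), with 5 of 9 animals higher. APOC1 lay between 266 and 1281 CPM in AT, and its log2 fold change was -0.09 ± 0.25 post-treatment (adjusted p = 0.845) and 0.40 ± 0.27 at washout compared to post-treatment (adjusted p = 0.25). Animals went different ways: animal 22130 changed little in APOC1 post-treatment (535 to 631 CPM), animal 24849 went from 1209 to 454 CPM and animal 23004 from 614 to 1023 CPM. APOC1 is duplicated in Old World monkeys, and how reads shared by the copies were counted is not given in the sources used here.

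**Figure D2:**
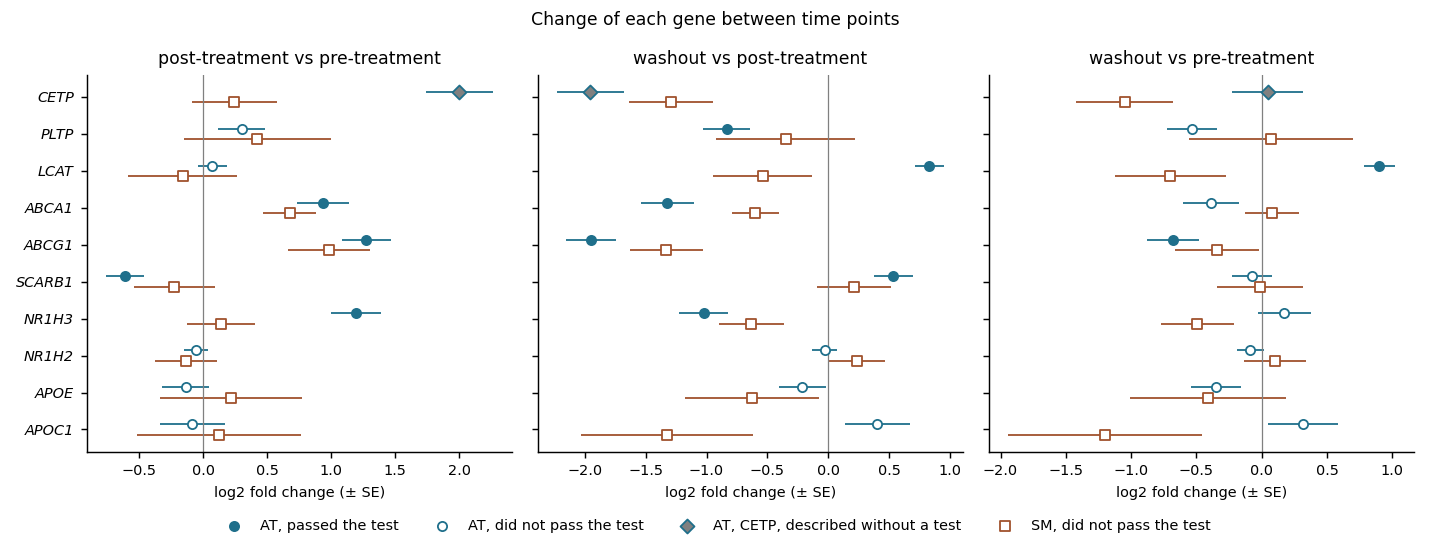
Log2 fold change (± SE) of each of the 10 genes in the 3 comparisons of time points in AT (circles) and SM (squares); filled markers passed the test, open markers did not, and the grey diamond is CETP in AT, described without a test. In AT, ABCA1, ABCG1 and NR1H3 lie right of 0 post-treatment and left of 0 at washout compared to post-treatment, and no SM gene is filled.

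Macrophage markers moved in the same libraries. All 15 markers of the list had log2 fold changes above 0 in AT post-treatment, with a median of 0.96. Called were AIF1, FCER1G and the complement genes C1QA, C1QB and C1QC, 5 of 15, while CD68 (1.18, adjusted p = 0.0757 with edgeR) and CD163 (0.23, adjusted p = 0.417) were not, and all 15 fell at washout compared to post-treatment with a median of -1.73; at washout compared to pre-treatment, 6 of 15 were called lower and the median was -0.79. Their sum ranged from 906 to 3570 CPM pre-treatment, from 1452 to 8659 CPM post-treatment and from 633 to 3479 CPM at washout, and none of the 15 was at 0 in a whole group. Over all AT genes edgeR called 6.98% higher post-treatment. It called 17.8% lower at washout compared to post-treatment and 7.96% lower at washout compared to pre-treatment. At washout compared to post-treatment, all 15 were called lower by edgeR, DESeq2 and voomWithQualityWeights, and by edgeR whichever single animal was left out. DESeq2 called 9 of the 15 post-treatment and voomWithQualityWeights 1. The number called post-treatment by edgeR depended on single animals, with 0 without animal 20275, 21189 or 22130, 1 without 26292, 3 without 20261 or 24849, 8 without 23004 and 9 without 20456. The number of all AT genes called higher moved too, from 933 to 295 without 22130, 375 without 20275, 469 without 21189 and 1026 without 20456. Of 6 adipocyte markers tested, LEP (-1.93, adjusted p = 0.00263), PPARG (-0.70, adjusted p = 0.0111) and PLIN1 (-0.62, adjusted p = 0.0383) were called lower post-treatment by edgeR and the median was -0.41. ADIPOQ (-0.21, adjusted p = 0.509), FABP4 (-0.17, adjusted p = 0.599) and AQP7 (-0.08, adjusted p = 0.845) were not called by edgeR. Over all AT genes 8.49% were called lower, and 7 of the 12 listed adipocyte markers were in the count table. The part of either cell type in the changes of NR1H3, ABCA1, ABCG1, PLTP, SCARB1 and CETP was not tested.

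Of the other markers in AT post-treatment, 2 of 8 stromal markers (COL1A1 and DPP4) and 1 of 4 T cell markers (CD8A) were called higher and 1 of 4 erythroid markers (SLC4A1) was called lower. The shares of all AT genes called were 6.98% higher and 8.49% lower. By edgeR none of 5 endothelial, 9 skeletal muscle and 4 hepatocyte markers was called, with 0, 0 and 1 at an unadjusted p under 0.05 and none by DESeq2 or voomWithQualityWeights.

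Animal by animal, the mean change of the 15 macrophage markers post-treatment ran from -0.59 in animal 20456 to 2.64 in animal 20275 on the log2 scale. Its Pearson correlation with the change of each gene over 9 animals was highest for PLTP (r = 0.808, exact permutation p = 0.00876, adjusted p = 0.0789 over 9 genes), followed by NR1H3 (r = 0.661, exact permutation p = 0.0537, adjusted p = 0.147) and ABCA1 (r = 0.633, exact permutation p = 0.0654, adjusted p = 0.147). APOE (r = -0.588) and SCARB1 (r = -0.645) went the other way. Spearman's rho was 0.783 for PLTP, 0.75 for NR1H3 and -0.767 for APOE, each with an adjusted p of 0.0765 by the exact permutation test. None of the 9 genes passed the adjusted threshold by either measure, with 1 gene at an unadjusted p under 0.05 by r and 3 by rho. Without the 2 animals farthest from the median change, r was 0.752 for PLTP, 0.783 for NR1H3, 0.705 for ABCA1 and 0.0664 for SCARB1, so that the relation of SCARB1 rested on those animals. For ABCG1 r was 0.00233 over 9 animals and 0.689 over 7. CETP had r = 0.393 and rho = 0.283, given without a p.

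Library identifiers fall into 3 number series whose meaning is not given in the sources used here, and the relation was therefore also computed in the 6 animals whose AT libraries both belonged to the last series. There r was 0.606 for PLTP, 0.08 for NR1H3, -0.142 for ABCA1 and -0.47 for CETP. The largest value was that of LCAT (r = -0.737, exact permutation p = 0.0736), followed by APOE (-0.618, exact permutation p = 0.188). None of the 9 genes had an unadjusted p under 0.05 by the exact permutation test in these 6 animals, which do not include 20456 and 23004, the animals with the lowest marker changes. The other 3 animals are too few for a value of their own.

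**Figure D3:**
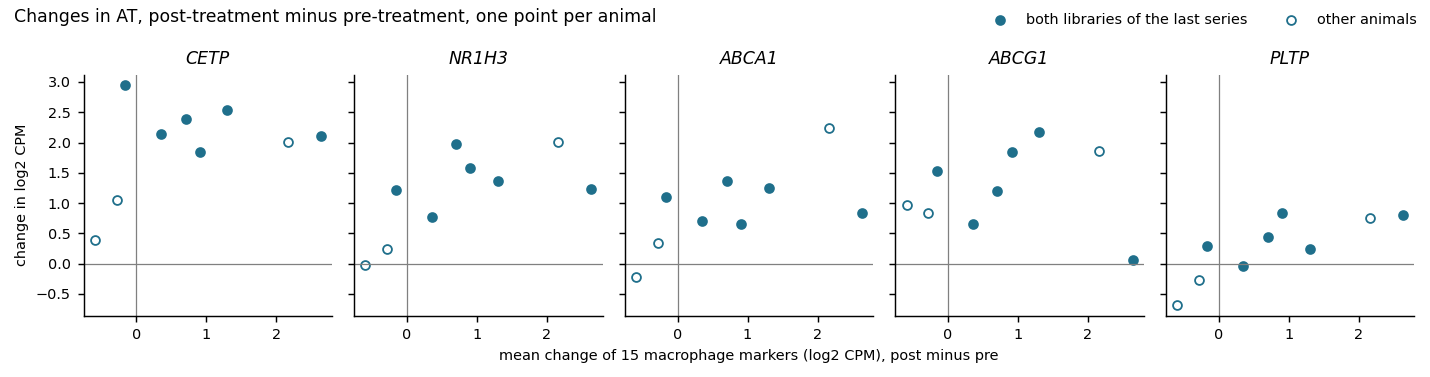
Change in log2 CPM of CETP, NR1H3, ABCA1, ABCG1 and PLTP in AT (y axis) against the mean change of 15 macrophage markers in log2 CPM (x axis), post-treatment minus pre-treatment, 1 point per animal (9 animals); filled points have both libraries in the last identifier series. The animals with the lowest marker changes, 20456 and 23004 (open points at the left), have the smallest CETP, NR1H3 and ABCA1 changes and the lowest PLTP changes, while r among the filled points is -0.47 for CETP and -0.142 for ABCA1. The remaining open point is animal 22130, with a marker change of 2.16 and the largest NR1H3 and ABCA1 changes.

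Other genes of cholesterol handling in AT were counted from 4 lists. In the list of LXR partners and other LXR targets, 14 of 16 genes were tested; post-treatment, 2 were called higher, MYLIP (log2 fold change 0.40 ± 0.11, adjusted p = 0.0245), a ubiquitin ligase, and SMPDL3A (0.76 ± 0.23, adjusted p = 0.0353), and 2 were called lower, LPCAT3 (-0.33 ± 0.10, adjusted p = 0.0378) and LPL (-0.71 ± 0.22, adjusted p = 0.0375), the lipoprotein lipase of the capillary wall. The median of the list was -0.11. At washout compared to post-treatment 4 of the 14 were called in each direction, and SMPDL3A was among those that fell (-0.94 ± 0.24, adjusted p = 0.00571). Over all AT genes the shares were the 6.98% and 8.49% given above post-treatment and 17.6% and 17.8% at washout compared to post-treatment. The counts of the list were equal in both directions and single out neither. Whether they differ from these shares was not tested. Post-treatment, no gene was called in either direction without animal 21866 or 22130, and 0 were lower without 20275 or 21189. Without 20456 or 23004, 3 were called higher, and 1 without each of 20261, 20275, 21189, 24849 and 26292. The number lower was 1 without 20456, 24849 or 26292. voomWithQualityWeights called 1 in each direction. Leaving out animals also moved the post-treatment calls over all AT genes, which were 933 higher and 1135 lower. They were 295 and 510 without 22130, 525 and 865 without 21866, 375 and 623 without 20275 and 469 and 847 without 21189. The leave-outs of the other lists stand beside these same counts.

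In the list of apolipoproteins, lipases and lipoprotein receptors, 20 of 31 genes were tested, 1 was called higher post-treatment and 5 lower. Over all AT genes the shares were 6.98% and 8.49%, and the median of the list was -0.26. The number lower was 2 without animal 20275, 21189, 21866, 22130 or 26292 and 3 without 24849, and none was called higher without 20261, 20275, 20456, 22130, 24849 or 26292. The one increase was LIPC, the hepatic lipase gene (0.84 ± 0.28, adjusted p = 0.0451), with a mean of 0.537 CPM before and 0.95 CPM after treatment.

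In the list of cholesterol synthesis and its control by SREBP2, 25 genes were tested. Post-treatment, 22 of them had a log2 fold change below 0, and the median of the list was -0.51 against 0.03 over all genes. Called lower were 11 and none higher, beside 8.49% lower and 6.98% higher over all AT genes. At washout compared to post-treatment 10 were called higher and 2 lower, beside 17.6% and 17.8% of all AT genes, with a median of 0.40. IDI1 (-0.89 ± 0.22, adjusted p = 0.0143) and SQLE (-0.81 ± 0.25, adjusted p = 0.0358), enzymes of the isoprenoid and squalene steps, fell by edgeR. The number called lower post-treatment was 7 without animal 20275, 21189 or 26292 and 6 without animal 22130. At washout compared to post-treatment the number called higher was 5 without animal 22130 and 6 without 24849, and 0 to 2 were called lower when single animals were left out, with 0 without 20275 or 21866 and 1 without 20261, 20456, 21189, 22130 or 23004.

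Among 32 genes of intracellular cholesterol transport, hydrolysis, esterification and oxysterols, 6 were called higher and 6 lower post-treatment. The shares of all AT genes were 6.98% and 8.49%, and the median of the 32 genes was 0.13. The number higher was 1 without animal 20275, 21189 or 22130, 3 without 20261 and 9 without 23004, the number lower was 2 without 22130 and 3 without 20275 or 21866, and voomWithQualityWeights called 3 higher and 4 lower. SOAT2, an enzyme that esterifies cholesterol, rose by 1.29 ± 0.37 on the log2 scale (adjusted p = 0.0277), CYP27A1, which makes the LXR ligand 27-hydroxycholesterol, by 0.78 ± 0.23 (adjusted p = 0.0325), and NPC2, which carries cholesterol out of the lysosome, by 0.66 ± 0.19 (adjusted p = 0.0266). The esterase CES1 fell by 1.06 ± 0.27 (adjusted p = 0.018) and the transporters ABCA2 by 0.74 ± 0.18 (adjusted p = 0.0131) and ABCA7 by 0.71 ± 0.12 (adjusted p = 0.00225). The ABC transporters ABCA2 and ABCA7 thus moved opposite to ABCA1 and ABCG1. Calls in these lists were near the threshold for several genes: when each of 10 animals was left out, IDI1, ABCA2 and ABCA7 were called in all 10 fits, CES1 in 9, MYLIP in 8, SOAT2 in 7, NPC2 and SQLE in 6, LPCAT3 in 5, LPL, LIPC and CYP27A1 in 4 and SMPDL3A in 3. Among the 10 is the fit without animal 19832, which had no AT library after treatment and adds nothing to the AT changes. Without animal 22130 each gene named here as called in fewer than 10 fits lost its call. Calls over all AT genes also fell in that fit, from 933 higher and 1135 lower to 295 and 510.

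**Figure D4:**
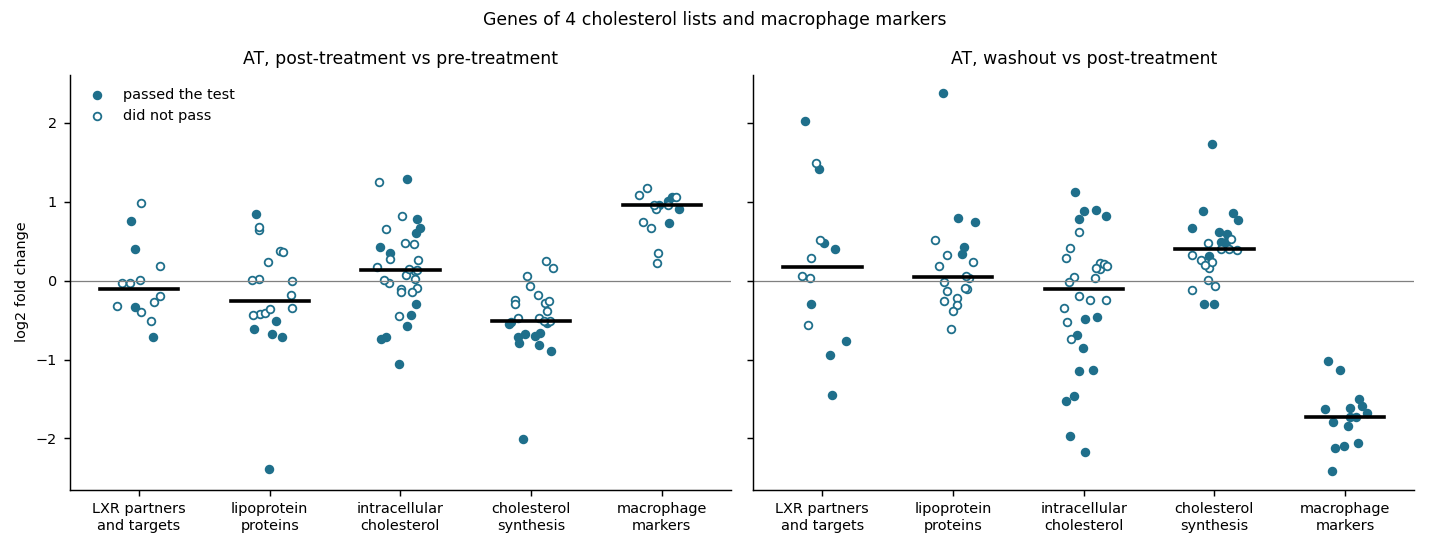
Log2 fold change in AT of each gene of 4 cholesterol lists and of 15 macrophage markers, post-treatment compared to pre-treatment (left) and washout compared to post-treatment (right); filled points passed the test and the black bar is the median of the list. The cholesterol synthesis list has its median at -0.51 on the left and 0.40 on the right, and the macrophage list at 0.96 and -1.73.

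The 5 genes whose log2 CPM was most like that of CETP over the 27 AT libraries, out of 12138 genes that averaged 1 CPM or more, were PDK4 (r = 0.843), KLF11 (0.814), CNTLN (0.809), MED20 (0.801) and TOB2 (0.788). PDK4, an inhibitor of pyruvate dehydrogenase that rises in fasting, had log2 fold changes of 1.12 post-treatment and -1.29 at washout compared to post-treatment. NR1H3 ranked 12th of the other genes with r = 0.754, ABCG1 41st (0.693), ABCA1 58th (0.681) and PLTP 255th (0.583), while SCARB1 had r = -0.514. These correlations are across libraries that share animals and time points and carry no p. With the mean of each time point removed, r was 0.774 for MED20, 0.764 for TERF2, 0.762 for CAPN6, 0.712 for PDK4 and 0.712 for SV2B, the highest 5 values. For NR1H3 it was then 0.54 (rank 146), for PLTP 0.482 (rank 293), for ABCA1 0.408 (rank 592), for ABCG1 0.406 (rank 603) and for SCARB1 -0.0828.

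In SM, all 10 genes were measured and none passed the test. CETP was low, at 0.543 to 5.52 CPM pre-treatment (median 2.62), 0.754 to 7.35 CPM post-treatment (median 3.15) and 0.367 to 1.93 CPM at washout (median 1.0), which corresponds to 6 to 151 counts per library. Its log2 fold change was 0.24 ± 0.33 post-treatment (adjusted p = 0.9996) and -1.29 ± 0.34 at washout compared to post-treatment (adjusted p = 0.122), lower in 6 of 7 animals. ABCG1 changed by 0.98 ± 0.32 post-treatment (4 of 6 animals higher, unadjusted edgeR p = 0.00789, adjusted p = 0.9996) and by -1.33 ± 0.30 at washout compared to post-treatment (7 of 7 animals lower, adjusted p = 0.0975). ABCA1, at 31.4 to 61.1 CPM pre-treatment (median 45.9), 42.7 to 106 CPM post-treatment (median 80.7) and 37.2 to 61.1 CPM at washout (median 48.1), changed by 0.68 ± 0.21 post-treatment (adjusted p = 0.9996) and by -0.60 ± 0.19 at washout compared to post-treatment (adjusted p = 0.161), lower in 7 of 7 animals. NR1H3 stayed between 1.33 and 6.03 CPM, with a log2 fold change of 0.14 ± 0.27 post-treatment.

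By edgeR 0% of 12617 genes were called in SM post-treatment compared to pre-treatment (410 had an unadjusted p under 0.05, and DESeq2 and voomWithQualityWeights also called 0), 0.19% at washout compared to post-treatment and 0.0634% at washout compared to pre-treatment. Of the 10 genes, 2, 4 and 1 had an unadjusted p under 0.05 in these comparisons; voomWithQualityWeights called none, and DESeq2 called CETP (-1.28, adjusted p = 0.0255) and ABCG1 (-1.33, adjusted p = 0.00362) lower at washout compared to post-treatment and none in the other comparisons. The counts in SM depended on the number series of the library identifiers, whose meaning is not given in the sources used here. Most SM washout libraries were of the last series and none of the first, while most post-treatment libraries were of the first. Series and time point are thus partly confounded in SM, and a fit with the series as a covariate cannot fully separate them. With that series as a covariate edgeR called 2650 genes at washout compared to post-treatment (24 without it) and 1355 at washout compared to pre-treatment (8 without it), among them NR1H3 (-0.94, adjusted p = 0.0492) and LCAT (-1.34, adjusted p = 0.0257) in the first and LCAT (-1.35, adjusted p = 0.0441) in the second. The cause of this difference was not tested. None of the genes of the 4 lists was called in SM by edgeR, with at most 5 of a list at an unadjusted p under 0.05 in a comparison; NCOA1, a coactivator of nuclear receptors, was called by DESeq2 at washout compared to pre-treatment (0.51, adjusted p = 0.0114) and none by voomWithQualityWeights.

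Spread between SM libraries was wide for APOE, APOC1, PLTP and SCARB1. APOE in SM had a median of 26.3 CPM pre-treatment, 23.1 CPM post-treatment and 17.6 CPM at washout, but animal 24849 held 104 CPM pre-treatment and 213 CPM post-treatment. The same libraries of that animal were the highest for APOC1 (37.6 and 95.0 CPM) and SCARB1 (30.5 and 22.7 CPM), and they are the libraries with the highest sums of adipocyte markers. For PLTP the highest SM libraries post-treatment were those of animals 21866 (53.1 CPM), 24849 (38.9 CPM) and 21189 (36.7 CPM), and 21866 and 21189 had the highest stromal sums. Both of these also had the highest LCAT (42.1 and 49.3 CPM) and the lowest NR1H2 (28.4 and 21.5 CPM) post-treatment. Whether other cell types account for these levels was not tested.

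**Figure D5:**
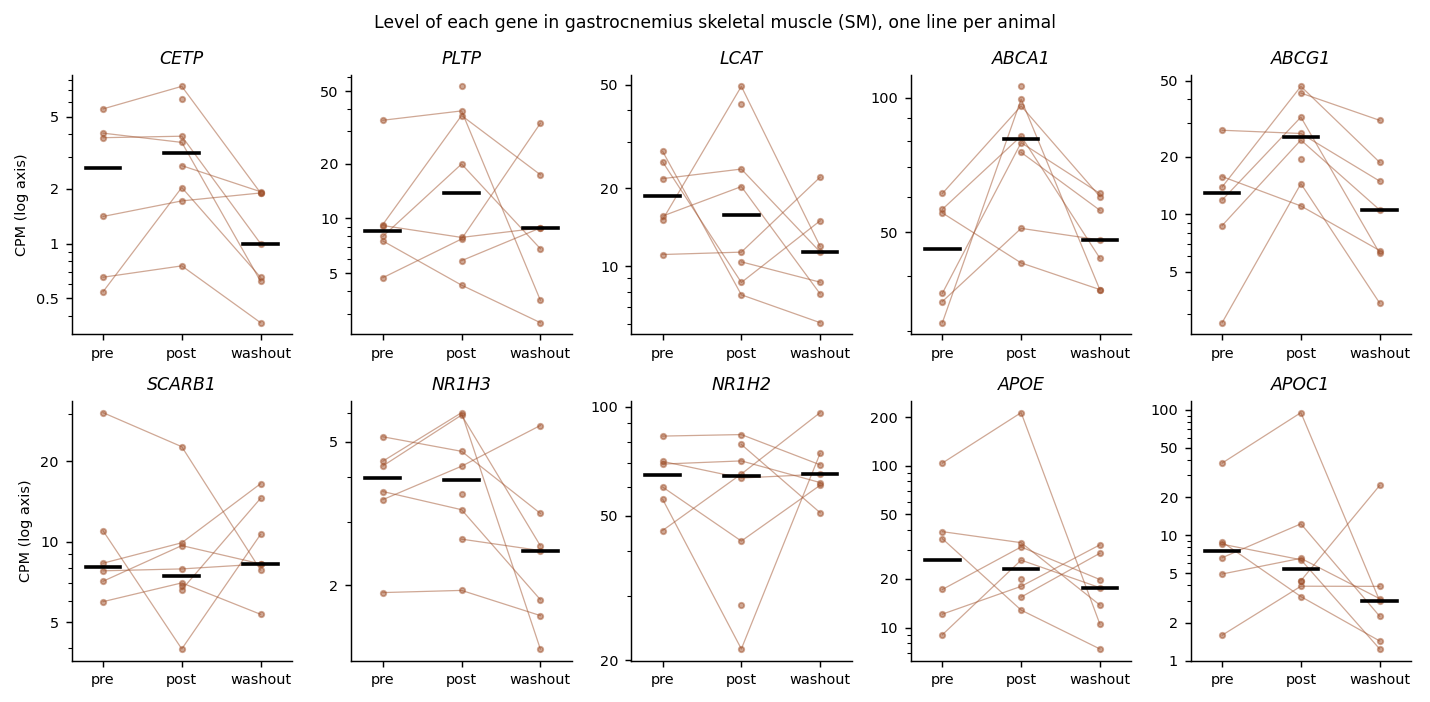
Level of each of the 10 genes in SM in CPM on a log axis at the 3 time points; each line joins the libraries of 1 animal (6, 8 and 7 libraries) and the black bar is the median of the time point. APOE, APOC1 and SCARB1 each have 1 animal far above the rest pre-treatment and post-treatment, and CETP stays under 8 CPM.

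The difference between the tissues in each change was tested with an interaction term, over 12322 genes measured in AT and SM. Post-treatment compared to pre-treatment, none of the 9 genes differed by edgeR, beside 0.0325% of all genes, with 1 at an unadjusted p under 0.05 (NR1H3, a difference of 1.06 ± 0.33 on the log2 scale, AT higher, adjusted p = 0.221); no other tool was run for this test. For ABCA1 the difference between AT and SM was 0.25 ± 0.31 and for ABCG1 0.27 ± 0.37, so that the larger changes of both in AT were within the error of the difference. CETP, given as a description, differed by 1.72 ± 0.44. LCAT alone passed the test, at washout compared to post-treatment (1.35 ± 0.40, adjusted p = 0.0144) and at washout compared to pre-treatment (1.59 ± 0.41, adjusted p = 0.00632), comparisons in which 22.8% and 18.2% of all genes differed. In SM its log2 fold changes were -0.54 ± 0.41 and -0.70 ± 0.43. The first of these calls was lost without animal 20275 (1.18, adjusted p = 0.0665) or animal 24849 (1.22, adjusted p = 0.0527). At washout compared to post-treatment, APOC1 differed by 1.72 ± 0.70 (adjusted p = 0.0771) and by 2.27 (adjusted p = 0.0112) without animal 20456 or 2.04 (adjusted p = 0.0496) without animal 22130, and ABCA1 by -0.73 ± 0.31 (adjusted p = 0.0843) and by -0.95 (adjusted p = 0.0333) without animal 23004. At washout compared to pre-treatment, APOC1 differed by 1.52 ± 0.72 (adjusted p = 0.149), and by 1.84 (adjusted p = 0.0408) without animal 20456.

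Before treatment, 7 of the 9 tested genes were higher in AT than in SM and 1 was lower, in a comparison over 13398 genes in which 38.3% were called higher and 34.3% lower. APOE (log2 fold change 5.84 ± 0.52, adjusted p = 1.16e-05), APOC1 (5.71 ± 0.47, adjusted p = 8.51e-06), PLTP (4.94 ± 0.39, adjusted p = 6.59e-06) and SCARB1 (4.91 ± 0.37, adjusted p = 5.32e-06) differed most. ABCG1 (2.11 ± 0.38, adjusted p = 8.85e-04), NR1H3 (2.06 ± 0.23, adjusted p = 4.43e-05) and ABCA1 (1.02 ± 0.20, adjusted p = 0.00125) followed. CETP, given as a description, was higher in AT by 2.25 ± 0.29, or by 3.08 when scaled by library size alone. The other 2 genes depended on the scaling. NR1H2 was lower in AT by TMM (-0.88 ± 0.17, adjusted p = 0.00126) and differed by -0.04 (adjusted p = 0.845) when scaled by library size alone, and LCAT went from -0.20 ± 0.24 (adjusted p = 0.47) by TMM to 0.64 (adjusted p = 0.0447) by library size. The order of levels between genes was not compared, since transcript lengths were not used here.

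In the RefSeq annotation of a complete rhesus assembly, which is not the genome the reads were aligned to, NR1H3 overlaps ACP2, PLTP overlaps CTSA and CD40, and ABCA1 overlaps NIPSNAP3B. The log2 fold changes of these neighbours in AT post-treatment were 0.42 for ACP2, 0.38 for CTSA, 0.21 for CD40 and -0.51 for NIPSNAP3B. The library kit keeps the strand, but whether the counting used it is not given in the sources used here, so that reads of overlapping genes may be shared.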

How the data were processed

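RNA of AT and SM biopsies was sequenced from stranded mRNA libraries. The authors aligned reads with STAR to the MacaM rhesus genome and deposited un-normalized counts per gene, with rhesus genes matched to human homologs. FastQC, SAMtools, edgeR and limma are also named in the submitters' processing notes, and the strand setting of the counting is not given in the sources used here. Of 16103 entries, 70 repeats were dropped, which left 16033 genes in 48 libraries, and 3 further SM samples were not analysed here.

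Genes with 0.5 CPM in 10% of the libraries of a tissue were kept. Counts were scaled by TMM and tested with edgeR 4.0.16 (robust quasi-likelihood, time point and animal, R 4.3.3), 1 fit per tissue, with the difference between tissues and the pre-treatment level fitted likewise on both tissues. Log2 CPM used a prior count of 2. Correlations used exact permutation tests, two-sided, over all orders of the animals (Python 3.11.15 and NumPy 2.4.6, with ranks from SciPy 1.17.1). The scripts were tested on simulated data. Animal numbers in the labels pair libraries: deviations from group means had a median correlation of 0.352 within animals (25 pairs) against -0.0354 between animals in AT, and of 0.279 (19 pairs) against -0.0464 in SM. The pre-treatment level of CETP in AT against SM was fitted with the rest but is given without a test, since those AT libraries are among the values that chose the gene. Animal 19832 had no AT library after treatment and adds nothing to the AT changes.

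Named were the 10 genes, the 5 genes most correlated with CETP in AT, and from each list up to 3 called increases and 3 decreases with the largest change. A few list genes picked in this way are left out here. Marker genes, NCOA1 and overlapping neighbours were named after their values were seen. The 10 genes and all lists were chosen with earlier results of these data known. Alternatives were library size or DESeq2 size factors as scaling, DESeq2 1.42.0, voomWithQualityWeights (limma 3.58.1), no filter, no animal term, 2 time points only, the number series of the library identifiers as a covariate, no fold limit and each animal left out. Only the last number series, and edgeR's earlier quasi-likelihood method, were added after seeing the data. Depth per library sets the counting error only. With an animal term, edgeR's p-values rest on the variation left once time point and animal are fitted. That is how far the changes differ from animal to animal, with biopsy and counting error included, and not how far the levels of animals differ.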

Additional observations from a re-analysis of the deposited data

Results flagged for a closer look

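In each group of 4 to 10 libraries the highest and lowest value of each gene were compared with the rest by Dixon's criterion. Of 60 groups of levels 12 held such a value and of 60 groups of changes 4. The nominal rate of about 1 in 20 holds for independent, normally distributed values. The groups here share libraries and CPM values need not be normally distributed, so that these counts cannot be set against that rate. In SM, 7 of the 12 came from animal 24849. Pre-treatment it held 34.6 CPM of PLTP (4.72 to 9.25 CPM in the others), 104 CPM of APOE (9.03 to 39.2 CPM), 37.6 CPM of APOC1 (1.60 to 8.83 CPM) and 30.5 CPM of SCARB1 (5.97 to 11.0015 CPM). Post-treatment it held 213 CPM of APOE (12.8 to 33.5 CPM), 95.0 CPM of APOC1 (3.24 to 12.3 CPM) and 22.7 CPM of SCARB1 (3.97 to 9.92 CPM). Its APOE changed by -4.33 in log2 CPM at washout compared to post-treatment, against -1.27 to 0.89 in the others. These libraries also had the highest adipocyte marker sums of SM, 791 and 1208 CPM, and the part of those markers in the levels was not tested.

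At washout, the SM library of animal 20456 held 24.9 CPM of APOC1 against 1.24 to 3.91 CPM in the others. CETP in SM changed by 1.71 in log2 CPM post-treatment in animal 19832 and by -0.16 to 0.41 in the other 5 animals.

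In AT, PLTP was 1068 CPM pre-treatment in animal 20456 (402 to 689 CPM in the others) and LCAT 45.0 CPM pre-treatment in animal 21189 (23.1 to 33.7 CPM). At washout ABCA1 was 222 CPM in animal 26292 (100.8 to 144 CPM in the others) and ABCG1 44.1 CPM in animal 20261 (54.4 to 63.5 CPM). Between pre-treatment and washout ABCG1 changed by -1.57 in log2 CPM in animal 26292 (-0.69 to -0.01 in the others) and SCARB1 by 0.77 in animal 24849 (-0.55 to 0.00 in the others).

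The change of LCAT differed between the tissues, by 1.35 at washout compared to post-treatment and by 1.59 at washout compared to pre-treatment on the log2 scale, higher in AT (interaction test of edgeR, adjusted p = 0.0144 and 0.00632).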

How the results depend on the processing

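Over the alternatives, the call or lack of a call of single tested genes was the same in 1484 of 1509 refits. A change of sign with no call in either fit was counted among these, and many of them are genes called in neither fit. Of the rest, 14 calls were gained, 10 lost and 1 sign turned with a call. In AT the numbers called post-treatment (3 higher, 1 lower) and at washout compared to post-treatment (2 and 4) stayed the same in every leave-out. That of animal 19832, which had no AT library after treatment, could change little. CETP in AT ranged over 21 alternatives from 1.85 to 2.34 post-treatment and from -2.14 to -1.73 at washout compared to post-treatment.

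With only libraries of the last number series, 0 were lower post-treatment, 1 was higher at washout compared to post-treatment, and 0 were lower at washout compared to pre-treatment. In that last comparison the number lower, 1 in the reported fit, was 0 with library size alone or the number series as a covariate. It was 2, with PLTP added, with DESeq2, voomWithQualityWeights, only the 2 time points or no replicate block, and 0 to 2 when single animals were left out.

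In SM at washout compared to post-treatment, 2 were called with DESeq2 and 2 (NR1H3 and LCAT) with the number series as a covariate, which called 1 (LCAT) at washout compared to pre-treatment. For AT minus SM, leaving out single animals gave 0 to 2 at washout compared to post-treatment and 1 to 2 at washout compared to pre-treatment. For AT against SM before treatment, library size alone left 0 lower and turned LCAT to 0.64. The causes were not tested.

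Over all genes, the fit without the replicate block, which drops the pairing by animal, called 632 higher and 788 lower post-treatment in AT (933 and 1135 with it) and 224 in SM at washout compared to post-treatment (24 with it) and 41 at washout compared to pre-treatment (8 with it). It changed no other call of the 9 AT genes than PLTP. In the same SM comparisons DESeq2 called 340 and 170 genes and the number series as a covariate 2650 and 1355. With library size alone, AT calls at washout split into 2979 higher and 1750 lower compared to post-treatment (2352 and 2379 by TMM), and into 2313 and 590 compared to pre-treatment (1671 and 1064 by TMM), and the median of all genes in SM at washout compared to post-treatment moved from -0.03 to -0.16. Only libraries of the last number series called 236 higher and 574 lower post-treatment in AT, 1138 and 1086 at washout compared to post-treatment, and 678 and 447 at washout compared to pre-treatment. Only the 2 time points called 551 higher post-treatment in AT, and voomWithQualityWeights called 1755 lower at washout compared to pre-treatment. Without animal 22130 the AT calls post-treatment were 295 higher and 510 lower, without 20275 375 and 623, and those higher were 469 without 21189, 525 without 21866 and 582 without 20261. In SM, leaving out single animals gave 0 to 38 calls at washout compared to post-treatment and 0 to 16 at washout compared to pre-treatment. In the first of these comparisons library size alone called 4, voomWithQualityWeights 9 and only the 2 time points 2, and in the second library size alone called 3, DESeq2 size factors 22 and edgeR's earlier method 3.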
